A study of Mus musculus with 6 samples.

Results

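Mast cells and basophils are granulated myeloid cells that carry IgE on their surface and release histamine, proteases and lipid mediators when that IgE is cross-linked by antigen. The receptor that holds the IgE, FcεRI, is built from an IgE-binding α chain (*Fcer1a*), a signal-amplifying β chain (*Ms4a2*) and a γ chain (*Fcer1g*) that several other Fc receptors of myeloid cells share. The transcription factor GATA2 (*Gata2*) is needed in both lineages and also in hematopoietic stem and progenitor cells. Histidine decarboxylase (*Hdc*) makes histamine, and the granule proteases comprise carboxypeptidase A3 (*Cpa3*), the basophil proteases *Mcpt8* and *Prss34*, and the mast cell tryptases *Tpsb2* and *Tpsab1*. These 10 genes were examined out of 55367 genes in the deposited table, to see whether *Cpa3* differed alone or with the genes of its lineage. They were chosen on the difference of *Cpa3* between the same libraries that are compared here, so their values are a description and carry no test.

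RNA was sequenced from leukemia stem cells (LSCs) of a mouse acute myeloid leukemia (AML) driven by the fusion oncogene MLL-AF9, in 3 WT and 3 *Piezo1 cKO* libraries. The mice were C57BL/6J, of both sexes and 8 to 10 weeks old. *Piezo1 cKO* stands for *Mx1-cre; Piezo1 fl/fl* mice and WT for *Piezo1 fl/fl* littermates without the Cre, both injected with pIpC, an RNA mimic that switches on the interferon-responsive *Mx1* promoter, which is not restricted to blood cells. The leukemia was started by giving irradiated mice lineage-negative marrow cells of either genotype that carried MLL-AF9 and YFP from a retrovirus. The remaining host cells of these mice carry no YFP. The study describes LSCs as YFP-positive, lineage-negative, Sca-1-negative and c-Kit-positive cells that are high for the Fc receptors CD16/32 and positive for CD34. Nothing in the sources says that the libraries of a group came from separate animals, so p-values measure only the spread between these samples, which may be technical.

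The deposited values are log2 expression values that behave like a regularized log, a transform that pulls each gene's values towards its mean, and most strongly where reads are few. Whole-number reads were recovered by undoing this pull, with 14112086 to 15483557 reads per library, so group sums of raw reads are close to comparable. Below, reads are these recovered reads, ratios are of reads scaled by each library's size factor with a 95% exact interval for counting error only, and log2 fold changes are of *Piezo1 cKO* minus WT on the deposited scale with their standard error (SE). *Piezo1* itself, which checks the labels, had 104, 92 and 113 reads in the WT libraries and 35, 58 and 45 in the *Piezo1 cKO* libraries. Every *Piezo1 cKO* library was below every WT library, at 46.1% of the WT level (log2 fold change -0.29, SE 0.04; adjusted p = 5.8e-06).

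*Cpa3* was not alone: 8 of the 10 genes were higher in all 3 *Piezo1 cKO* libraries than in all 3 WT libraries, namely *Cpa3*, *Hdc*, *Gata2*, *Prss34*, *Mcpt8*, *Ms4a2*, *Fcer1g* and *Tpsb2*. *Fcer1a* overlapped between the groups, and *Tpsab1* had next to no reads. Among all 16746 genes tested, 33.5% did not overlap in this direction and 33.1% in the other. The same 8 genes had an adjusted p under 0.05, as had 31.6% of all genes tested that were higher and 31.4% that were lower. With a log2 fold change over 1 required as well, 2 of the 10 were called (*Cpa3* and *Hdc*), against 0.257% of all genes called higher and 0.561% called lower. On recovered reads these thresholds were met by 5 of the 10, with *Ms4a2*, *Tpsb2* and *Mcpt8* added, against 12.7% of 17352 genes called higher and 12.2% called lower. 9 of the 10 passed the minimum mean for testing, *Tpsab1* being the exception. Since the choice rested on *Cpa3*, the counts without it are 7 of 9 not overlapping, 7 with an adjusted p under 0.05, 1 past both thresholds and 4 on recovered reads, and all of these counts are a description. In bulk RNA, more or fewer cells of a type and more or less RNA per cell cannot be told apart.

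Carboxypeptidase A3 trims peptides in mast cell granules and is also known from basophils and their progenitors. *Cpa3* had 587, 528 and 617 reads in the WT libraries against 4989, 4989 and 4845 in the *Piezo1 cKO* libraries. The groups were far apart and the libraries within each lay close together, with a ratio of 8.83 (8.40 to 9.29). Its log2 fold change was 2.19 (SE 0.03) and ranked 4 from the highest of 16746 genes tested on the deposited scale. On recovered reads, where the pull is removed, it ranked 640 of 17352.

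Histidine decarboxylase was second among these genes on the deposited scale. *Hdc* had 820, 810 and 869 reads in WT and 3543, 3805 and 3605 in *Piezo1 cKO* libraries. The ratio was 4.52 (4.33 to 4.73), with a log2 fold change of 1.52 (SE 0.03), and no library came near those of the other group.

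*Gata2*, which is read in progenitors of other lineages too, differed less. It had 1342, 1391 and 1438 reads in WT and 2267, 2572 and 2514 in *Piezo1 cKO* libraries, without overlap. The ratio was 1.82 (1.75 to 1.89) and the log2 fold change 0.60 (SE 0.03), so *Cpa3* reads per *Gata2* read went from 0.38 to 0.437 in the WT libraries to 1.93 to 2.2 in the *Piezo1 cKO* libraries.

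The 3 chains of the IgE receptor differed from one another. *Ms4a2*, the β chain found in mast cells and basophils, had 22, 20 and 19 reads in WT and 77, 66 and 73 in *Piezo1 cKO* libraries, a ratio of 3.65 (2.74 to 4.94). *Fcer1g*, the shared γ chain, had 2918, 2723 and 2757 reads against 3394, 3646 and 3479. Its groups did not overlap, but the ratio was only 1.29 (1.26 to 1.33). *Fcer1a*, the chain that binds IgE itself, had 5, 15 and 8 reads in WT and 15, 18 and 11 in *Piezo1 cKO* libraries. The groups overlapped, and at this depth the ratio of 1.62 had an interval from 0.987 to 2.71 that includes no difference. On the deposited scale the log2 fold changes of the 3 chains were 0.33 (SE 0.03) for *Ms4a2*, 0.26 (SE 0.03) for *Fcer1g* and 0.04 (SE 0.02) for *Fcer1a*.

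Of the granule proteases besides *Cpa3*, those known from basophils had clear reads in both groups. *Prss34* had 2285, 2275 and 2408 reads in WT and 4123, 4724 and 4337 in *Piezo1 cKO* libraries, a ratio of 1.95 (1.90 to 2.01; log2 fold change 0.69, SE 0.03). *Mcpt8* had 104, 93 and 108 reads against 198, 216 and 183, a ratio of 2.02 (1.76 to 2.33; log2 fold change 0.39, SE 0.04). The groups of both genes lay apart at similar ratios, although *Prss34* was read far more. The tryptases stored in mast cell granules were near the limit of detection. *Tpsb2* had 0, 1 and 0 reads in WT and 21, 17 and 19 in *Piezo1 cKO* libraries, and because WT held a single read its ratio of 58.8 had an interval from 10.1 to 2360. The pull leaves little of this on the deposited scale, where the log2 fold change was 0.15 (SE 0.02). *Tpsab1* had 0, 2 and 0 reads in WT and 0 in each *Piezo1 cKO* library, too few for a fold in either direction.

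**Figure D1:**
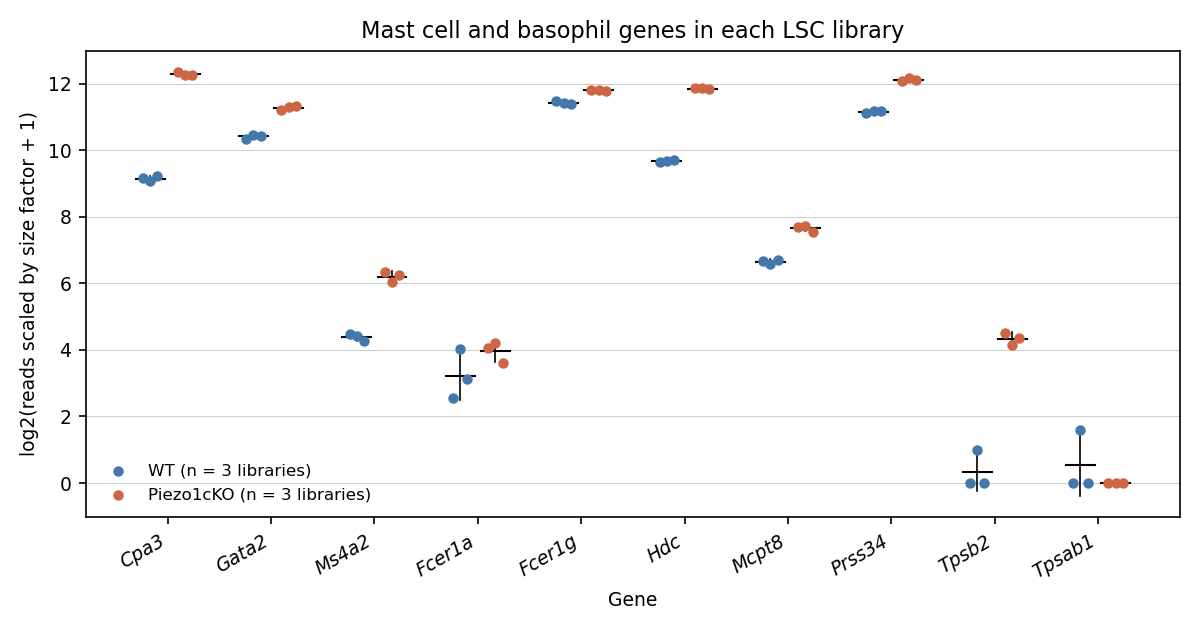
Recovered reads of the 10 mast cell and basophil genes, scaled by size factor, as log2 of the scaled reads plus 1, with a point for each library, a bar for the mean and a line for 1 SD on each side (n = 3 libraries per group). The *Piezo1 cKO* libraries lie above the WT libraries for 8 genes, overlap them for *Fcer1a*, and have no read of *Tpsab1*.

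Levels between genes are compared as RPKM, recovered reads scaled by the library total and by annotated exon length, and sums over genes as CPM, scaled by the library total only. *Fcer1g* had the highest level of the 10 genes in both groups, at 211 ± 6.52 RPKM in WT and 276 ± 0.648 in *Piezo1 cKO* libraries (mean ± SD, n = 3). *Prss34* came next, at 125 ± 3.16 and 247 ± 8.61 RPKM, followed by *Cpa3*, at 25.0 ± 1.34 and 224 ± 8.02. The gap between *Prss34* and *Cpa3* was thus wide in WT libraries and small in *Piezo1 cKO* libraries, where the 2 genes still did not overlap. In WT libraries *Gata2* (16.9 ± 0.708) stood above *Hdc* (8.57 ± 0.228), and in *Piezo1 cKO* libraries *Hdc* (39.3 ± 0.215) stood above *Gata2* (31.2 ± 1.27), each without overlap. *Mcpt8* followed in both, at 6.69 ± 0.341 and 13.7 ± 0.886 RPKM. The receptor chains restricted to the lineage were far below, with *Ms4a2* at 0.475 ± 0.0362 and 1.76 ± 0.195 and *Fcer1a* at 0.621 ± 0.358 and 1.01 ± 0.222, and these neighbours overlapped in WT libraries. In *Piezo1 cKO* libraries *Fcer1a* overlapped *Tpsb2* (0.822 ± 0.114) instead. Together the 10 genes took 529.6 ± 4.34 CPM in WT and 1322.4 ± 5.30 in *Piezo1 cKO* libraries, of which *Cpa3* made up 6.72% to 7.5% in the WT and 24.9% to 26.8% in the *Piezo1 cKO* libraries.

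The 10 genes lie on 7 chromosomes of GRCm38, with *Cpa3* at chr3:20215620-20242181, *Hdc* at chr2:126593667-126619299 and *Gata2* at chr6:88193891-88207032. *Prss34*, *Tpsab1* and *Tpsb2* share the tryptase locus of chromosome 17, within 70.7 kb from 25298394 to 25369098, and *Mcpt8* lies in the chymase locus of chromosome 14 (56082166 to 56085273). *Ms4a2* is on chromosome 19 (11615523 to 11623719), and *Fcer1g* and *Fcer1a* are on chromosome 1, from 171229572 and 173221284. All are protein-coding, and no exon of another annotated gene overlaps theirs. Of all 50-base windows of their transcripts, 2.1% of *Ms4a2* (with *Ms4a4b*) and 0.1% of *Hdc* also occur in transcripts of other genes, and none of the other 8 genes, the tryptases included, so reads shared between near copies touch few of these counts.

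Promoters were searched for GATAA, the core letters that GATA factors bind, and a match is a description only. RefSeq promoters on GRCm38.p6 were found for 8 of the 10 genes, 9 entries in all since *Gata2* has 2, and not for *Tpsb2* and *Tpsab1*. In the 250 bases before the RefSeq start, GATAA occurred on either strand in 4 of the 9 entries (44.4%), and in 7418 of 32851 promoters of all genes (22.6%). The 4 were *Cpa3* (1 match, starting 45 bases before the start), *Prss34* (1 match, 30 bases before), *Fcer1a* (1 match on the other strand, 92 bases before) and *Ms4a2* (3 matches, 10 to 224 bases before). The E-box letters CANNTG occurred in 6 of the 9 entries (66.7%) and in 66.2% of all promoters. No GATAA lies in these windows of *Hdc*, *Gata2*, *Fcer1g* or *Mcpt8*. RefSeq starts can differ from the gene coordinates given above. The whole window of *Hdc* lies inside its gene as given above, so the bases before that gene's outer start were not searched. The window of 1 *Gata2* entry also lies inside the gene, and those of *Mcpt8* and *Fcer1g* lie partly inside. Shown 5′ to 3′ on the strand of the gene, with GATAA or its reverse complement TTATC in capitals, are the promoters of the 2 genes with the largest log2 fold changes, *Cpa3* (chr3:20242182-20242431, minus strand) with a match and *Hdc* (chr2:126618679-126618928, minus strand) without, of *Ms4a2* (chr19:11623720-11623969, minus strand), which has the most matches, and of *Prss34* (chr17:25298144-25298393, plus strand).
Cpa3: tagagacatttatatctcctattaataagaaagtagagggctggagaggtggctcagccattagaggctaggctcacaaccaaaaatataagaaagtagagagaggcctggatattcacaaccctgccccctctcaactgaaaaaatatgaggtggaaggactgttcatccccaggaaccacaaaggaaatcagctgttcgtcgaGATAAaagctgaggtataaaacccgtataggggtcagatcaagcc
Hdc: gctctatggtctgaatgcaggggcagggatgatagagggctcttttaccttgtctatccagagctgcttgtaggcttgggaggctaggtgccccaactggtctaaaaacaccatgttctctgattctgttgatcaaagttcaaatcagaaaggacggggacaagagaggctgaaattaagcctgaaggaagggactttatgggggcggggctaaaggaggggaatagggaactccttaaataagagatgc
Ms4a2: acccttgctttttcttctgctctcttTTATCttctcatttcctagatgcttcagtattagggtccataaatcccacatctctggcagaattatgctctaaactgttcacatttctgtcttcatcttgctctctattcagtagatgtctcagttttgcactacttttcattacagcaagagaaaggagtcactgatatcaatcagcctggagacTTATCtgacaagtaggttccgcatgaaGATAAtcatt
Prss34: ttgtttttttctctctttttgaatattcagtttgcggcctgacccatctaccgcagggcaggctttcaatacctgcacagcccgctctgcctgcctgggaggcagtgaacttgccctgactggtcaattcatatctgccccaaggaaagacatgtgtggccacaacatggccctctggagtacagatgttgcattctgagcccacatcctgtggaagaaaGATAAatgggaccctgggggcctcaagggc

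Other genes of the lineage were taken from lists, with the 10 genes above left out of each. All adjusted p-values below come from the same limma fit over 16746 genes, and the groups did not overlap for any gene given one unless stated. The median log2 fold change of all genes tested was 0.00. Of the 239 listed genes 172 were tested, of which 74 were higher, 67 lower and 31 past neither, with a median of 0.00. That is 43.0% higher and 39.0% lower, against 31.6% and 31.4% of all genes tested.

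The signaling genes below the IgE receptor split in both directions, with 11 of 23 tested higher, 9 lower and a median of 0.06. The adaptor *Lat2*, which FcεRI uses beside LAT, had 2887, 2840 and 2982 reads in WT and 4836, 5207 and 4959 in *Piezo1 cKO* libraries (log2 fold change 0.60, SE 0.02; adjusted p = 1.31e-13). *Orai1*, the pore of the calcium channel that drives degranulation, was lower, with a ratio of 0.437 (log2 fold change -0.71, SE 0.03; adjusted p = 2.01e-12). The Src-family kinase *Fgr* went from 95, 81 and 100 reads to 2, 1 and 5 (ratio 0.0299, 0.0128 to 0.0598; adjusted p = 3.98e-11).

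Of the other granule proteases and the genes that pack them, 4 of 7 tested were higher and 2 lower, with a median of 0.10. The mast cell chymase *Cma1* had no read in any WT library and 23, 20 and 17 in *Piezo1 cKO* libraries, at least 20.6-fold higher against 3 reads over the WT group (adjusted p = 2.20e-06). Granzyme B (*Gzmb*) went from 0 in each to 17, 25 and 30 reads, at least 24.8-fold higher (adjusted p = 2.26e-06). *Ndst2*, which sulfates the heparin that holds mast cell proteases in the granule, had a ratio of 3.20 (2.67 to 3.84; adjusted p = 4.01e-09). Cathepsin C (*Ctsc*), which activates granule serine proteases, was lower at a ratio of 0.386 (log2 fold change -0.99, SE 0.02; adjusted p = 1.29e-16), as was cathepsin G (*Ctsg*) at 0.775 (adjusted p = 1.14e-09). Of the other chymase genes, *Mcpt1*, *Mcpt2*, *Mcpt9* and *Cma2* were listed at 0 in all 6 libraries and *Mcpt4* had 1 read in all.

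At the chymase locus 9 of 14 other genes had no read and 3 were tested, *Cma1* and *Gzmb* being higher and *Ctsg* lower. At the tryptase locus and the other serine protease genes of chromosome 17, 3 of 10 others had no read, and 2 of 3 tested were higher and 1 lower. *Prss28*, 8.48 kb from *Prss34*, had no WT read and 11, 10 and 13 in *Piezo1 cKO* libraries, at least 11.7-fold higher (adjusted p = 4.35e-05), and *Prss30*, 1.32 Mb away, went from 0, 2 and 0 to 12, 8 and 9 (ratio 15.0, 3.79 to 129; adjusted p = 0.000409). *Prss33* had 7, 3 and 3 reads in WT and none in *Piezo1 cKO* libraries, at least 4.2-fold lower (adjusted p = 0.00426), a call lost when libraries were shifted to 1 median.

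Neighbours of *Cpa3* and *Gata2* differed little on the deposited scale. Next to *Cpa3*, 3 of 5 tested were higher and 1 lower, with a median of 0.05. *Cpb1*, a carboxypeptidase gene 6.08 kb from *Cpa3*, had no WT read and 11, 1 and 7 reads in *Piezo1 cKO* libraries, at least 6.54-fold higher over the group (adjusted p = 0.0068), a bound that rests on uneven libraries and a call lost without *Piezo1 cKO* replicate 1. *Gyg*, which primes glycogen synthesis, and *Hps3*, of lysosome-related organelles, had ratios of 1.19 (adjusted p = 0.00218) and 1.14 (adjusted p = 0.00295), and *Cp* went from 10, 7 and 9 reads to 1, 0 and 2 (adjusted p = 0.00109). Around *Gata2*, 2 of 5 tested were higher and 2 lower, with ratios between 0.811 (*Sec61a1*, of the translocon; adjusted p = 1.38e-07) and 1.12 (*Eefsec*, of selenocysteine decoding; adjusted p = 0.00404), and *Rpn1*, of protein glycosylation, was lower (log2 fold change -0.12, adjusted p = 2.24e-05). Among 9 tested relatives of *Cpa3* in the carboxypeptidase families, 3 were higher and 3 lower. The cytosolic enzymes *Agtpbp1* (ratio 0.514, adjusted p = 1.05e-08) and *Agbl5* (ratio 0.473, adjusted p = 9.11e-06) and the Golgi enzyme *Cpd* (ratio 0.620, adjusted p = 0.000259) were the 3 lower ones and had the largest log2 fold changes on the deposited scale. The higher ones had fewer reads and larger ratios: besides *Cpb1*, *Cpn1* went from 4, 6 and 3 reads to 22, 20 and 27 (ratio 5.48, 3.0 to 10.8; adjusted p = 4.79e-05) and *Cpa6* from 1, 1 and 3 to 4, 8 and 12 (ratio 4.95, 1.85 to 16.6; adjusted p = 0.00982), a call lost without *Piezo1 cKO* replicate 3.

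Histamine handling other than *Hdc* split evenly, with 2 of 6 tested higher, 2 lower and a median of 0.01. The transporter *Slc22a3*, which carries histamine among other amines, had 51, 55 and 52 reads in WT and 149, 152 and 184 in *Piezo1 cKO* libraries (adjusted p = 3.78e-09). The receptor *Hrh1* went from 2 reads in each WT library to 22, 37 and 27 (ratio 14.8, 6.53 to 41.4; adjusted p = 2.47e-06). *Aoc1*, a histamine-degrading oxidase, went from 59, 53 and 71 reads to 0, 1 and 0 (ratio 0.00564, 0.000142 to 0.0318; adjusted p = 1.14e-09). *Slc18a2*, which loads histamine into granules, was slightly lower (ratio 0.886, adjusted p = 0.00579).

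Among enzymes of lipid mediators, 2 of 8 tested were higher and 3 lower, with a median of -0.04. *Alox5*, which starts leukotriene synthesis, rose from 94, 133 and 113 reads to 981, 1136 and 1091 (ratio 9.74, 8.70 to 10.9; log2 fold change 1.88, SE 0.05; adjusted p = 1.60e-16), and its partner *Alox5ap* rose with a ratio of 1.24 (adjusted p = 9.23e-06). *Lta4h*, which makes leukotriene B from the product of *Alox5*, fell with a ratio of 0.467 (log2 fold change -0.81, SE 0.02; adjusted p = 2.28e-17). Also lower were *Hpgds* (ratio 0.279, 0.168 to 0.447; adjusted p = 0.000334) and *Pla2g4a* (ratio 0.789; adjusted p = 0.000142). *Ltc4s*, the synthase of the cysteinyl leukotrienes, had 4, 7 and 7 reads against 9, 4 and 5, with overlap (adjusted p = 0.938).

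Of the surface receptors 13 of 21 tested were higher and 6 lower (61.9% and 28.6%, against 31.6% and 31.4% of all genes tested), with a median of 0.13. The adenosine receptor *Adora3*, which enhances mast cell degranulation in mice, had 18, 17 and 29 reads in WT and 151, 129 and 115 in *Piezo1 cKO* libraries (log2 fold change 0.63, SE 0.04; adjusted p = 5.82e-10). *Milr1*, an inhibitory receptor of mast cells, rose with a ratio of 1.88 (adjusted p = 1.60e-11), and the receptor *Cd200r1*, also inhibitory, fell with a ratio of 0.345 (adjusted p = 2.35e-10). *Ptgdr2* and *Mrgprb2*, receptors of basophils and mature mast cells, were listed at 0 in all libraries.

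Of the cytokines, 3 of 8 tested were higher and 3 lower, with a median of -0.02, and *Il3*, *Il9*, *Il13* and *Csf2* were listed at 0 in all libraries. All 3 higher ones were chemokines: *Ccl3* (ratio 3.35, log2 fold change 1.18, SE 0.03; adjusted p = 3.61e-16), *Ccl4* (ratio 6.34, log2 fold change 1.01, SE 0.04; adjusted p = 1.16e-13) and *Ccl9* (ratio 1.75; adjusted p = 8.49e-10). Lower were *Tnf* (ratio 0.478; adjusted p = 0.000308), and *Il6* (ratio 0.217) and *Osm* (ratio 0.896), whose groups both overlapped. *Il4* had 1 to 4 reads in each library, with overlap (adjusted p = 0.553).

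Transcription factors other than *Gata2* did not share one direction, with 8 of 23 tested higher, 11 lower and a median of -0.03. *Cebpb* fell from 976, 932 and 999 reads to 31, 36 and 35 (ratio 0.0362, 0.0294 to 0.0441; log2 fold change -2.37, SE 0.04; adjusted p = 8.00e-20), and *Bhlhe40*, which basophils and mast cells use for cytokine genes, fell with a ratio of 0.146 (log2 fold change -1.23, SE 0.04; adjusted p = 2.52e-14). *Cebpa*, which favours the basophil over the mast cell fate, rose with a ratio of 2.30 (2.03 to 2.61; adjusted p = 5.31e-10), and *Tal1*, a blood stem cell factor that acts with GATA proteins, rose from 0, 2 and 0 reads to 31, 43 and 38 (ratio 57.8, 15.6 to 483; adjusted p = 5.43e-08). *Lmo2* (log2 fold change -0.52, adjusted p = 3.05e-12) and *Spi1* (log2 fold change -0.26, adjusted p = 2.17e-07), of the same list, were lower. *Gata1*, the partner of *Gata2* in mast cells, had 63, 73 and 52 reads in WT and 83, 70 and 67 in *Piezo1 cKO* libraries and *Mitf*, a regulator of mast cell genes, 53, 54 and 48 against 46, 55 and 41, and both overlapped (adjusted p = 0.164 and 0.690).

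Other receptors that signal through *Fcer1g* split too, with 3 of 7 tested higher and 2 lower. *Clec4d* (ratio 2.30, adjusted p = 8.32e-05) and *Pira2* (log2 fold change 0.19, adjusted p = 0.000163) rose, while *Clec4n* went from 33, 39 and 29 reads to 0 in each library, at least 32.6-fold lower (adjusted p = 1.36e-07), and the platelet collagen receptor *Gp6* from 12, 16 and 11 to 0 in each, at least 12.6-fold lower (adjusted p = 4.36e-05). The most abundant, *Fcgr3*, overlapped between the groups at a ratio of 0.984 (adjusted p = 0.574). Among markers of basophil and mast cell progenitors, 4 of 7 tested were higher and 1 lower, with a median of 0.31. That is 57.1% and 14.3%, against 31.6% and 31.4% of all genes tested. *Kit*, *Cd34* and *Fcgr3* of this list also belong to the sort gate of the LSCs, so they do not single out such progenitors here. The higher ones included the integrin chain *Itgb7*, which marks such progenitors, with 1088, 1123 and 1203 reads in WT and 1778, 2050 and 1890 in *Piezo1 cKO* libraries (log2 fold change 0.54, SE 0.03; adjusted p = 7.34e-11), and *Kit*, the stem cell factor receptor (ratio 1.36, adjusted p = 8.42e-09). *Il1rl1*, the receptor of interleukin 33 on mature cells, was lower with 17, 19 and 27 reads against 11, 9 and 7 (adjusted p = 0.00875), a call also lost when libraries were shifted to 1 median.

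**Figure D2:**
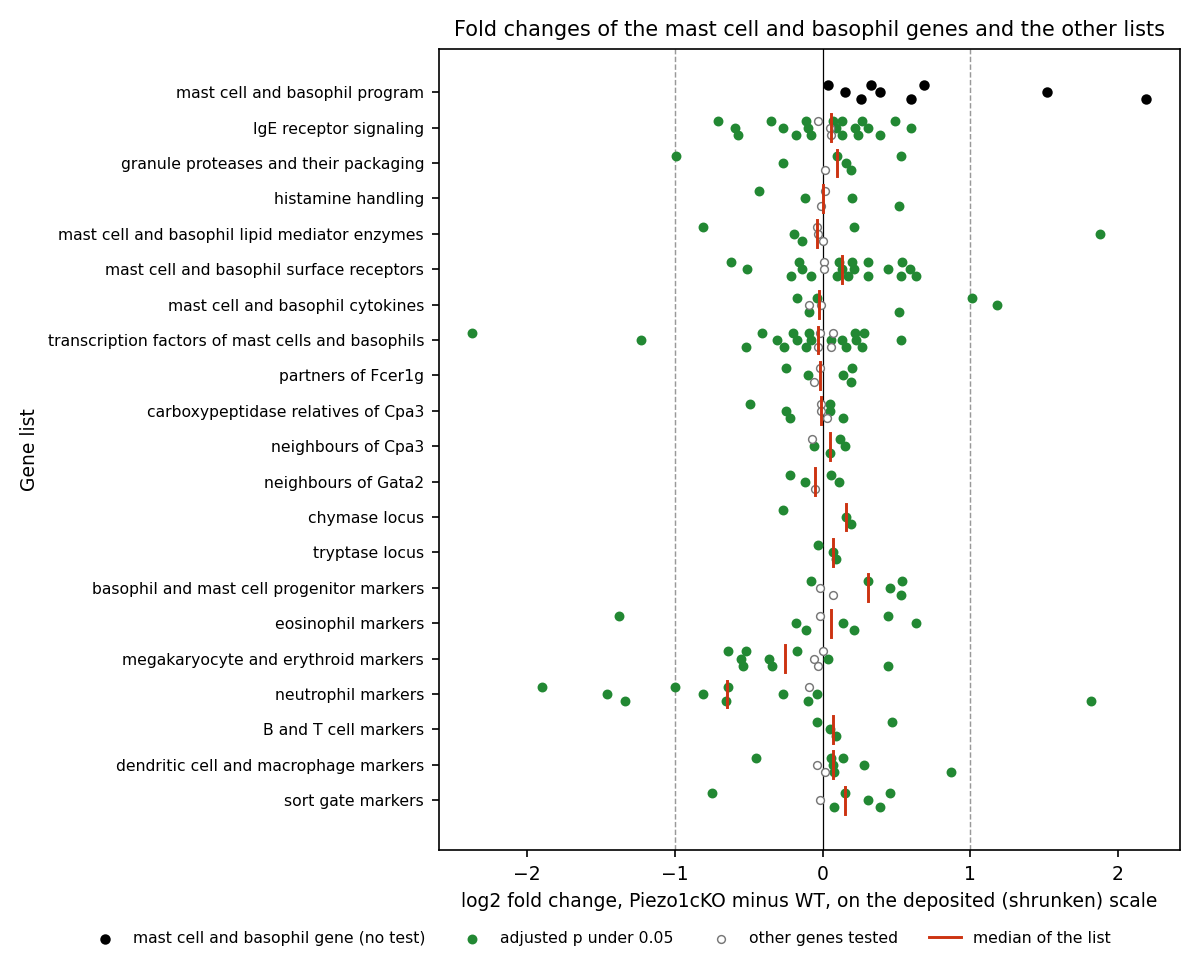
Log2 fold changes (*Piezo1 cKO* minus WT, deposited scale, n = 3 libraries per group) of the genes tested in each list. Each point is a gene, and dashed lines lie at -1 and 1. A red line marks the median of each list except that of the mast cell and basophil genes, which are drawn in black. Of the mast cell and basophil genes, *Cpa3* (2.19) and *Hdc* (1.52) lie past 1. Of the other lists, 4 genes lie past 1 (*Alox5*, *Mmp8*, *Ccl3* and *Ccl4*) and 7 past -1. The neutrophil list has a median of -0.65, and most medians lie near 0 on this scale. On recovered reads the medians of these lists ran from -1.93 (neutrophil markers) to 5.39 (3 tested genes of the chymase locus).

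Markers of other lineages moved with the same comparison. Of the neutrophil markers 10 of 12 tested were lower and 1 higher, with a median of -0.65, and their summed level fell from 36970 ± 1510 to 19417.1 ± 833 CPM (mean ± SD, n = 3), with *Mpo* the most abundant (52.6% and 55.3% of it). *Ngp* fell with a log2 fold change of -1.90 (SE 0.04; adjusted p = 6.42e-18), as did *Camp* (log2 fold change -1.46), *S100a9* (log2 fold change -1.34) and *S100a8* (ratio 0.0876), while the collagenase *Mmp8* rose from 39, 42 and 49 reads to 623, 639 and 616 (log2 fold change 1.82, SE 0.04; adjusted p = 1.03e-17). *Ly6g*, which defines mature neutrophils, had 1 read in all libraries and *Retnlg* none. Of the megakaryocyte and erythroid markers, which *Gata2* progenitors can also give, 7 of 12 tested were lower and 2 higher, with a median of -0.25. Their sum fell from 72.2 ± 4.06 to 38.0 ± 1.32 CPM. *Tfrc* was the most abundant in WT (39.8%) and fell with a log2 fold change of -0.64 (adjusted p = 5.39e-11). *Itga2b* rose with a ratio of 1.99 (adjusted p = 2.65e-08) and was the most abundant in *Piezo1 cKO* libraries (48.0%). *Car1* and *Pf4* fell with ratios of 0.0857 and 0.0945 (adjusted p = 1.32e-10 and 7.09e-10).

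Eosinophil markers were split with 4 of 8 tested higher and 3 lower, and their sum stayed at 503.5 ± 19.8 and 508.1 ± 11.6 CPM, most of it the granule protein *Prg2* (67.3% and 82.4%). *Prg3* rose with a ratio of 2.31 (adjusted p = 2.20e-10) and eosinophil peroxidase (*Epx*) fell with a ratio of 0.238 (log2 fold change -1.38, SE 0.03; adjusted p = 1.19e-16). *Siglecf* rose (ratio 1.83, adjusted p = 1.55e-08), the interleukin 5 receptor chain *Il5ra* went from no read to 15, 19 and 21 (at least 18.9-fold higher, adjusted p = 3.29e-06), and *Ccr3* and *Alox15* were listed at 0 in all libraries. The eosinophil ribonucleases *Ear1*, with 9, 14 and 22 reads in WT and none in *Piezo1 cKO* libraries (at least 14.5-fold lower, adjusted p = 0.00014), and *Ear6*, with a ratio of 0.0413 (0.00833 to 0.125; adjusted p = 3.35e-06), fell. B and T cell markers rested on *Cd79b*, which made up 98.8% of their sum in both groups (106.1 ± 1.99 and 171.0 ± 7.91 CPM), with *Cd8a* at 0, and of 4 tested *Cd3d* was lower (ratio 0.129, adjusted p = 0.00628, a call lost with libraries shifted to 1 median) and 3 were higher, namely *Cd79b* (log2 fold change 0.47, adjusted p = 1.94e-10), *Trac* (log2 fold change 0.09, adjusted p = 0.000351) and *Cd79a* (log2 fold change 0.05, adjusted p = 0.0395), whose call was lost with any of 5 of the 6 libraries left out. Of the dendritic cell and macrophage markers 6 of 9 tested were higher and 1 lower, with a sum of 191.3 ± 5.85 and 255.7 ± 2.58 CPM led by *Csf1r* in WT (48.1%) and *Flt3* in *Piezo1 cKO* libraries (42.7%), and *C1qa* at 0. *Flt3* had the largest log2 fold change among them on the deposited scale, though not the largest ratio of reads (ratio 2.48, log2 fold change 0.87, SE 0.03; adjusted p = 4.92e-14), *Xcr1* of cross-presenting dendritic cells rose too (log2 fold change 0.28, adjusted p = 3.45e-06), and *Zbtb46*, of classical dendritic cells, fell (log2 fold change -0.45, adjusted p = 1.26e-08). On recovered reads 7 of 10 dendritic cell and macrophage markers tested passed both thresholds higher and 1 lower (median log2 fold change 1.38). Of the mast cell and basophil genes 5 of 9 tested passed higher and 0 lower (median 1.01), and of all genes 12.7% and 12.2%. What part other cell types have in the values of the mast cell and basophil genes was not tested.

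The genes of the sort gate were present, with a sum of 1188.8 ± 15.7 CPM in WT and 1313.4 ± 35.0 in *Piezo1 cKO* libraries. *Kit*, for c-Kit, was higher as given above. *Cd34* was higher (ratio 1.56, adjusted p = 8.32e-12), as was the integrin chain *Itgam*, a lineage antigen (log2 fold change 0.39, adjusted p = 1.80e-07), *Fcgr3*, for CD16, overlapped as above, and *Fcgr2b*, for CD32, was lower (ratio 0.481, log2 fold change -0.75, SE 0.03; adjusted p = 1.29e-13). *Ly6a*, for Sca-1, which the gate leaves out, had 1, 1 and 0 reads in WT and 10, 17 and 7 in *Piezo1 cKO* libraries (adjusted p = 0.000535).

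The 5 genes whose values over the 6 libraries ran closest to those of *Cpa3* were *H2-Aa*, *Ndufa12-ps*, *Alox5*, *Mmp8* and *Lpcat2*, by the root mean square difference of deposited values centred on each gene's mean (0.055, 0.161, 0.186, 0.189 and 0.236 in log2 units). *H2-Aa*, of MHC class II, had 6, 10 and 8 reads in WT and 641, 588 and 589 in *Piezo1 cKO* libraries (ratio 78.2, 52.4 to 122), so the likeness to *Cpa3* holds on the deposited scale and not for the ratio of reads. *Lpcat2*, of phospholipid remodelling, had 104, 99 and 93 reads against 863, 845 and 877 (ratio 9.01, 7.99 to 10.2). *Ndufa12-ps* is a pseudogene, whose reads may belong to other copies. None of the 5 is among the 10 mast cell and basophil genes.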

How the data were processed

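Per the submitters' processing notes and the study's methods, the authors used fastp 0.20.1, HISAT2 2.2.1 on GRCm38, featureCounts 2.0.1 and DESeq2 1.28.1. The deposited table holds log2 values for 26402 genes, from -1.97 to 18.06, and 28965 genes at 0 in all libraries. The transform, unnamed in the sources, was undone by fitting size factors and the strength of the pull so that reads became whole, and 90.8% of values of 18323 genes came within 0.1 of a whole number before rounding.

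Deposited values of 16746 genes with a mean of at least 1 were fitted with limma 3.58.1 in R 4.3.3 (lmFit, eBayes with trend, two-sided, no covariates), with Benjamini-Hochberg adjusted p-values. Both thresholds mean adjusted p below 0.05 and a log2 fold change beyond 1 in either direction. Recovered reads of 17352 genes with at least 10 in total went through limma-voom. With 3 libraries a side, no exact permutation p can fall below 0.1. Scripts were tested on simulated data.

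The 10 genes and all lists were chosen with earlier results of these data known. Named were genes past both thresholds in each list and the 3 called genes with the largest log2 fold changes. Of lists of up to 12 genes, some further genes were named and others, called ones included, were not. *Gata1* was named outside these rules. *Mcpt1*, *Mcpt2*, *Mcpt4*, *Mcpt9*, *Cma2*, *Ptgdr2*, *Mrgprb2*, *Mitf*, *Mpo*, *Ly6g*, *Retnlg*, *Itga2b*, *Cpn1*, *Cpa6*, *Tal1*, *Lmo2*, *Spi1*, *Tnf*, *Il6*, *Osm*, *Hpgds* and *Pla2g4a* were added after their values were seen. A withheld item is not reported here. Gene models were from GENCODE M21. Python 3.11.15 with numpy 2.4.6, scipy 1.17.1, pandas 2.3.3 and matplotlib 3.10.9 was used.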

Additional observations from a re-analysis of the deposited data

How the results depend on the processing

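The log2 fold change of each of the 9 tested mast cell and basophil genes stayed above 0 under every alternative that fitted it. Of the 10 genes, 8 passed an adjusted p of 0.05 throughout, except 7 with a mean of at least 5, and 9 with libraries shifted to 1 median or without WT replicate 2, where *Fcer1a* was added. The number past both thresholds was 2, and 5 on recovered reads, with library totals (5) or with a replicate block on reads (5). For genes past the thresholds, higher counts went from 43 to 2212 on recovered reads, 2255 with library totals and 2227 with the replicate block on reads, which was chosen after seeing the data. For genes past the thresholds, lower counts went from 94 to 2110, 2078 and 2137. Scale, filter and fit change together there, and the cause was not tested. Leaving out each library gave 42 to 45 and 92 to 99. For genes past an adjusted p of 0.05, higher counts were 4746 to 5051 with a library left out against 5298, and for genes past an adjusted p of 0.05, lower counts were 4850 to 5070 against 5258. The same ranges were 2 to 2 and 0 to 0 for the 10 genes past both thresholds, 8 to 9 and 0 to 0 for those past an adjusted p of 0.05, and 67 to 72 and 62 to 66 for the other lists. Libraries shifted to 1 median had 6450 genes higher and 4214 lower, 60.5% of calls being higher against 50.2%, and *Prss33*, *Il1rl1* and *Cd3d* lost their calls. *Cd79a* lost its call without the filter and with 5 of 6 libraries left out, *Cpb1* without *Piezo1 cKO* replicate 1, and *Cpa6* without *Piezo1 cKO* replicate 3. The replicate block gave 5542 higher and 5513 lower and kept the 8 genes. Same-numbered libraries correlated at 0.20, 0.16 and 0.07 after group means were removed, and differently numbered ones at -0.17 to 0.03. Each library correlated best with its own number, and whether the numbers pair the libraries was not tested.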

Other observations

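Some listed genes were read in every library of one group and in none of the other. Of 26402 genes with values, 57 had no read in any WT library and at least 10 in each *Piezo1 cKO* library, and 107 the reverse. The first group held *Cma1*, *Gzmb*, *Prss28* and *Il5ra* of the lists, and the second *Clec4n* and *Gp6*. None of the 10 mast cell and basophil genes met either condition, since *Tpsb2* had 1 read in a WT library.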
